A study of Saccharomyces cerevisiae with 36 samples.

Results

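A set of 10 genes of glycerol metabolism and the osmotic response was followed by its probes on 36 dual-channel arrays of 70-mer oligonucleotides. The 10 probes belong to 6388 yeast probes, of which 5326 carry 1 gene symbol and 1062 carry none. The set holds the genes of glycerol synthesis GPD1 (YDL022W), GPD2 (YOL059W), RHR2 (YIL053W, now also named GPP1) and HOR2 (YER062C, now also named GPP2), the genes of glycerol uptake and breakdown STL1 (YDR536W), GUT1 (YHL032C), GUT2 (YIL155C), GCY1 (YOR120W) and DAK1 (YML070W), and the kinase gene HOG1 (YLR113W). The set was chosen by a measured value, the low level of HOR2 in the starved histone H4 mutant H4K5,12R. Every difference of a member between that mutant and the starved wild type is therefore given as a description with no test.

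In budding yeast, glycerol is made from an intermediate of glycolysis in a pair of steps, reduction by a glycerol 3-phosphate dehydrogenase (GPD1 or GPD2) and removal of the phosphate by a glycerol 3-phosphatase (RHR2 or HOR2). Cells accumulate glycerol to balance a high external osmotic pressure, and the mitogen-activated protein kinase HOG1 drives the transcription of GPD1, HOR2 and STL1 under such stress. Glycerol is also a carbon source, taken up by the proton symporter STL1, phosphorylated by the glycerol kinase GUT1 and oxidised by the mitochondrial dehydrogenase GUT2, and the genes of this route are repressed while glucose is present.

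Each array set the RNA of 1 strain against a common wild-type reference RNA, and all levels below are log2 ratios of strain over that reference. The 18 strain groups had 2 arrays each, named a and b, with the dyes exchanged. The 8 starved strains (16 arrays) were kept 3 days in saturated rich medium with β-estradiol. They carry the RITE cassette, in which a Cre recombinase fused to an estradiol-binding domain and driven by the TDH3 promoter exchanges an HA tag on histone H3 for a T7 tag. All of them, the wild type included, are MATa, lack BAR1 and lack HHT1-HHF1, so that HHT2 and HHF2 are their only genes for H3 and H4. The starved strains were the wild type (wt), hat1-del, hat2-del, hif1-del, hat1-del+hif1-del, hat2-del+hif1-del and the HHF2 mutants K5Q-K12Q and K5R-K12R, called H4K5,12Q and H4K5,12R here, in which lysines 5 and 12 of H4 are replaced. HAT1, HAT2 and HIF1 encode the subunits of NuB4, a nuclear complex that acetylates new histone H4. The 3 growing RITE strains (6 arrays, mid-log in synthetic medium with 2% glucose) were untagged (wt-rite) or carried H3-HA or H3-T7. Their background is derived from BY4733 and is not that of the starved strains. They too are MATa, lack BAR1 and HHT1-HHF1 and carry the Cre recombinase, but differ from the starved strains in markers such as TRP1 and LYS2. The other 14 arrays hold 7 growing strains of the MATα background BY4742 in the same synthetic medium: the same 3 single and 2 double deletions, hat1-del+hat2-del and the triple deletion. The labels give BY4742 as the strain of every sample, and the RITE backgrounds come from the methods of the study. The methods of the study state that every mutant was profiled from 2 separately started cultures, but the labels do not tie arrays a and b to cultures or say this of the wild types, so p-values measure the spread between arrays, which may be technical.

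The arrays were bright throughout, with 94.9 to 99.7% of yeast probes above background in the strain channel and 94.3 to 99.3% in the reference channel. Over probes, the correlation between arrays a and b was 0.96 to 0.98 in the starved strains, 0.92 to 0.96 in the growing RITE strains and 0.68 to 0.82 in the BY4742 strains. The labelled states held in the marker genes: 6 of 7 starvation markers were higher in the starved wild type than in the growing RITE strains and 0 were lower, while 7 of 8 growth markers were lower and 1, ADE17, was higher. In the starved deletion strains the probe of each deleted gene was 1.75 to 2.29 log2 units below the starved wild type. This passed the test in 6 of 7 cases, with HIF1 in hat2-del+hif1-del at an adjusted p of 0.05. The spot of ATG33 gave no signal in either channel on the starved wt, hat1-del, hat2-del and hif1-del arrays (foreground over background 0.996 to 1.03) or on the growing RITE arrays (0.992 to 1.02). It gave 2.78 to 37.4 on the 8 arrays of the other 4 starved strains and 4.51 to 8.69 on the growing BY4742 arrays. By this 1 spot the starved arrays fall into 2 sets, though the data name no print batch. For hat1-del+hif1-del, hat2-del+hif1-del, H4K5,12Q and H4K5,12R the strain and the array set cannot be told apart when they are compared with the starved wild type.

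All 10 members were above background in both channels on all 36 arrays. Their brightness differed: the mean intensities of HOR2, RHR2 and GPD1 lay at percentiles 95.8, 93.7 and 92.5 of all probes, and those of GPD2 and STL1 at percentiles 27.4 and 28.8. RHR2 and HOR2 are close paralogs, as are GPD1 and GPD2. The files hold no probe sequences, so signal shared between paralogs cannot be separated and each of these values is uncertain to that extent. Ratios are relative to the rest of each array, and in bulk RNA fewer cells with a transcript cannot be told apart from less of it per cell.

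**Figure D1:**
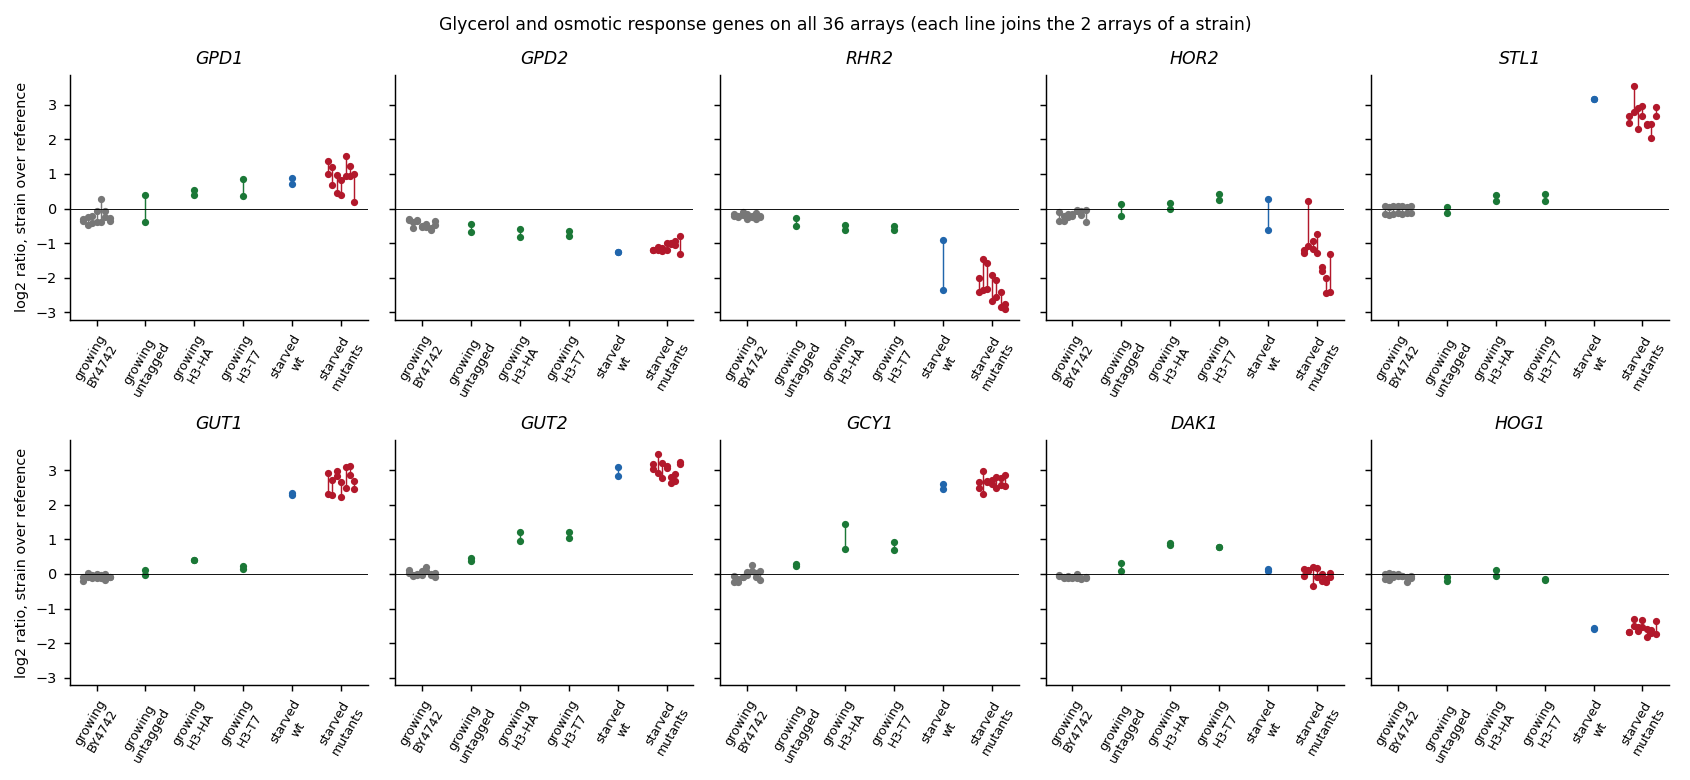
Log2 ratio of strain over reference (vertical axis) for the 10 members on all 36 arrays, by class of sample (horizontal axis); each line joins the 2 arrays of a strain. STL1, GUT1, GUT2 and GCY1 lie at 2.05 or more on all 16 starved arrays, HOG1 at -1.3 or less, and HOR2 spreads from -2.45 to 0.28 among them.

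Starved wild-type cells held more RNA of 4 of the 5 genes of glycerol uptake and breakdown, and less of HOG1, of RHR2 and of GPD2, than growing RITE cells. Of the 10 members, 5 were higher and 4 were lower at an adjusted p under 0.05, against 40% and 38.2% of all 6388 probes called higher and lower. With 4996 of 6388 probes called, a share of this size says little about the members as a set. The starved and growing strains also differed in medium, in parts of their genotype and in the RNA isolation protocol that the labels name for the strain RNA, so these cannot be told apart from starvation.

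STL1, the glycerol symporter, rose most among the members. Its log2 ratio was 3.17 and 3.16 on the 2 starved wild-type arrays and ran from -0.12 (median 0.21) to 0.41 on the 6 growing RITE arrays. The groups lay far apart, with a difference of 2.97 ± 0.19 (SE), 7.85-fold, and an adjusted p of 3.69e-08. STL1 is dim in growing cells and in the reference, where the constant of 50 added to every intensity pulls ratios toward 0. Its fold may thus be understated, which was not tested. Over 21 alternatives the difference ran from 2.38 to 2.99.

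GUT1, the glycerol kinase, had log2 ratios of 2.29 and 2.35 in the starved wild type against -0.03 to 0.39 (median 0.2) in the growing RITE strains. GUT2, the mitochondrial glycerol 3-phosphate dehydrogenase, had 3.1 and 2.82 against 0.37 to 1.22 (median 0.99). For both genes the starved and growing arrays did not overlap. The differences were 2.11 ± 0.15 for GUT1, 4.32-fold, and 2.09 ± 0.15 for GUT2, 4.25-fold, with adjusted p of 8.38e-08 and 1.08e-07.

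GCY1 encodes an aldo-keto reductase with glycerol dehydrogenase activity, the entry to a second route of glycerol breakdown through dihydroxyacetone. Its log2 ratios were 2.61 and 2.44 in the starved wild type and 0.22 to 1.43 (median 0.71) in the growing RITE strains, again without overlap. It rose by 1.81 ± 0.17, 3.5-fold (adjusted p = 9.95e-07). DAK1, the dihydroxyacetone kinase that acts after GCY1 on that route, went the other way. DAK1 stood at 0.13 and 0.08 in the starved wild type and at 0.08 to 0.88 (median 0.78) in the growing strains. It fell by 0.5 on the log2 scale (SE 0.09, adjusted p = 0.000251). The starved values lay beside those of the growing untagged strain, 0.31 and 0.08, and below the 4 arrays of the growing tagged strains, 0.78 to 0.88.

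HOG1 RNA was low in every starved sample. The 2 starved wild-type arrays gave -1.56 and -1.6, the 14 starved mutant arrays -1.81 to -1.3 (median -1.6) and the 6 growing RITE arrays -0.21 to 0.12 (median -0.12). HOG1 fell by 1.48 (SE 0.08), 2.79-fold lower, with an adjusted p of 7.3e-09.

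The 4 genes of glycerol synthesis did not move together. RHR2, the phosphatase that is the more abundant form in unstressed cells, had log2 ratios of -2.36 and -0.91 in the starved wild type and -0.63 to -0.26 (median -0.5) in the growing RITE strains. It fell by 1.14 (SE 0.31), 2.2-fold lower (adjusted p = 0.00495), but its 2 wild-type arrays lay 1.45 apart, and the call was lost without array a of the starved wild type (-0.54, adjusted p = 0.193), with the authors' ratios (-0.29, adjusted p = 0.569) and with print-tip loess (-1.01, adjusted p = 0.0627). GPD2, the dehydrogenase linked to redox balance without oxygen, had -1.26 on both starved wild-type arrays and -0.81 to -0.44 (median -0.67) in the growing strains. It fell by 0.6 (SE 0.1, adjusted p = 0.000185), although with the ratios that the authors normalized the fall was 0.14 (adjusted p = 0.157).

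GPD1, the dehydrogenase induced by osmotic stress, had 0.88 and 0.72 in the starved wild type and -0.39 to 0.86 (median 0.39) in the growing RITE strains, so the groups overlapped. Its difference of 0.44 ± 0.12 passed the test (adjusted p = 0.00549), but this rests on the loess normalization of whole arrays: the value was -0.24 with print-tip loess, -0.04 with median centring and -0.15 with the authors' ratios, each with an adjusted p above 0.05. Without array b of the starved wild type it was 0.27 (adjusted p = 0.147). HOR2, the phosphatase induced by osmotic stress, had -0.63 and 0.28 in the starved wild type and -0.2 to 0.41 (median 0.15) in the growing strains. Its difference of -0.3 ± 0.34 did not pass the test (95% interval -1.05 to 0.44, adjusted p = 0.432). With median centring the fall of HOR2 was larger. The median-centred means were -1.3 in the starved wild type and -0.18, -0.33 and -0.1 in the growing untagged, H3-HA and H3-T7 strains.

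The starved wild-type arrays entered the difference by which HOR2 was chosen. When the mean of the 5 starved NuB4 mutants stood in for the wild type, all 10 members were called in the direction given above, HOR2 included. HOR2 was then lower by 1.24 (SE 0.22), 2.37-fold lower than in the growing RITE strains (adjusted p = 0.00014), and RHR2 was lower by 1.74 (SE 0.2, adjusted p = 2.86e-06). Among the 3 single deletions alone, whose arrays share the missing ATG33 signal with the growing RITE arrays, HOR2 was lower by 1.22 (SE 0.24, adjusted p = 0.00043). Deletion and starvation are joined in these contrasts. HOR2 kept this direction and its call in the contrast of 5 mutants with print-tip loess, median centring and the authors' ratios, with differences of -0.59, -1.83 and -0.78 (adjusted p = 0.00236, 7.76e-10 and 0.000105). GPD1 did not keep its direction in that contrast, at -0.21 with print-tip loess (adjusted p = 0.0119).

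**Figure D2:**
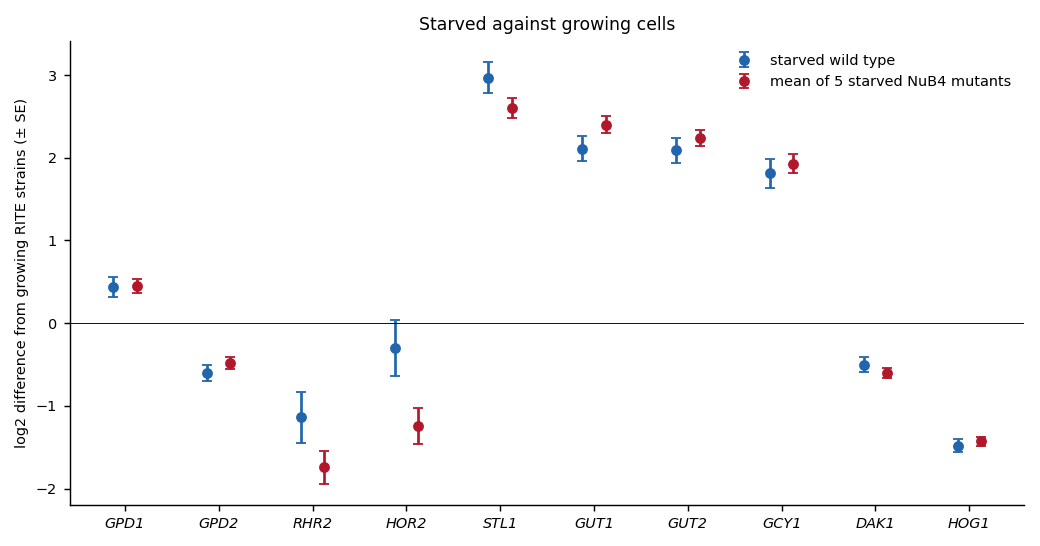
Log2 difference from the mean of the 3 growing RITE strains (vertical axis) for each member (horizontal axis), with the starved wild type (blue) or the mean of 5 starved NuB4 mutants (red) as the starved arm; bars are SE. The arms lie close together for 7 members, while HOR2 is at -0.3 and -1.24, RHR2 at -1.14 and -1.74, and STL1 at 2.97 and 2.6.

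The HOR2 levels among the starved strains include the 2 strains whose difference chose the set, and are given as a description. Its strain means had an SD of 0.71 log2 units across the 8 starved strains, against 0.06 to 0.39 for the other 9 members among the same strains and 0.08 for HOR2 itself among the 7 BY4742 strains. Without wt and H4K5,12R the SD over the other 6 strains was 0.53 for HOR2, 0.33 for RHR2 and 0.04 to 0.28 for the other 8 members. The order of the starved means ran from wt (-0.18) through hat1-del (-0.43), hat2-del (-1), hat2-del+hif1-del (-1.06), hat1-del+hif1-del (-1.24), H4K5,12Q (-1.76) and hif1-del (-1.86) to H4K5,12R (-2.23). The arrays of a strain differed widely too, with a pooled SD within strains of 0.52, larger than for 98.9% of probes, so that neighbours in this order do not differ beyond their spread. The widest gap was in hat1-del, with 0.23 on array a and -1.09 on array b, followed by hif1-del with -1.32 and -2.4 and wt with -0.63 and 0.28. The other strains were tighter, at -1.27 and -0.73 in hat2-del, -1.18 and -0.95 in hat2-del+hif1-del, -1.2 and -1.28 in hat1-del+hif1-del, -1.7 and -1.81 in H4K5,12Q and -2 and -2.45 in H4K5,12R. The 2 arrays of H4K5,12R were among the 3 lowest of the 16, with array b of hif1-del between them.

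**Figure D3:**
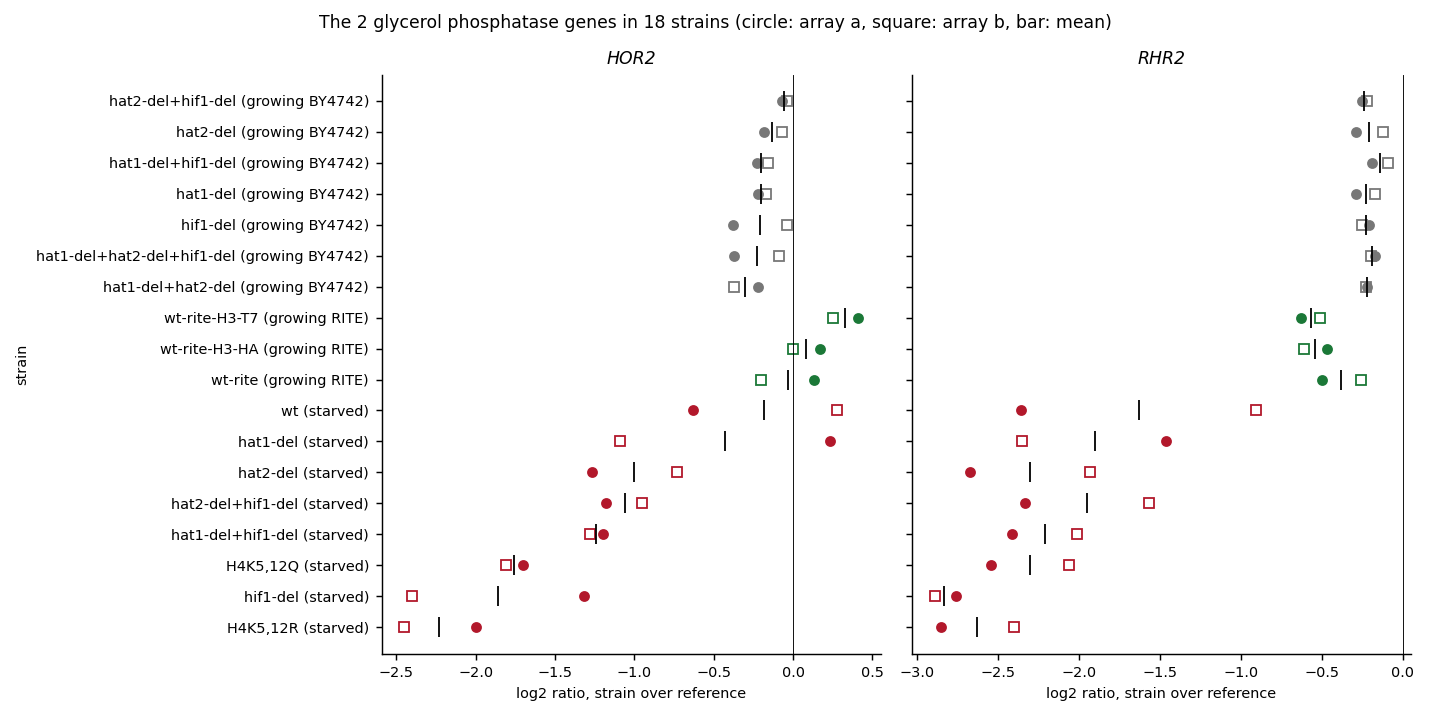
Log2 ratio of strain over reference (horizontal axis) for HOR2 and RHR2 in the 18 strains (vertical axis), with array a as a circle, array b as a square and the mean as a bar. Growing strains lie between -0.38 and 0.41 for HOR2 and between -0.63 and -0.09 for RHR2, and all 16 starved arrays lie below these for RHR2, from -2.89 to -0.91.

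The value that chose the set was a difference of -2.05 ± 0.46 (SE) for HOR2 between H4K5,12R and the starved wild type, 4.14-fold lower, the second lowest of 6388 probes in that contrast after PDR12 (-2.96), with ERO1 next (-1.33). In that contrast 3.24% of all probes had an adjusted p under 0.05, a share given as background and no test of HOR2 or the other members. Against the other starved strains HOR2 in H4K5,12R stood at -1.8 from hat1-del, -1.23 from hat2-del, -1.16 from hat2-del+hif1-del, -0.99 from hat1-del+hif1-del, -0.47 from H4K5,12Q and -0.37 from hif1-del, each ± 0.46. Within its array set, against the mean of hat1-del+hif1-del, hat2-del+hif1-del and H4K5,12Q, it stood at -0.87 ± 0.37. With the authors' ratios the 2 arrays of H4K5,12R were at -1.54 and -1.55 and those of wt at -0.24 and 0.42. The wild type remained the highest and H4K5,12R the lowest of the 8 starved strain means with print-tip loess, where they were 0.4 and -1.33, and with median centring, where they were -1.3 and -2.68.

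In the same contrast the other members of H4K5,12R were at -0.99 ± 0.41 for RHR2, -0.91 ± 0.26 for STL1, 0.67 ± 0.2 for GUT1, 0.28 ± 0.13 for GPD1, 0.27 ± 0.12 for GPD2 and -0.3 ± 0.11 for DAK1. GUT2, GCY1 and HOG1 were at -0.19 ± 0.2, 0.15 ± 0.17 and -0.09 ± 0.1. STL1 had its lowest starved mean in H4K5,12R, with 2.05 and 2.45 on the 2 arrays, and its highest in hat1-del and wt. GUT1 had its highest starved mean there, with 2.86 and 3.12, and its lowest in wt.

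None of the 10 members was called in any of the other 6 starved mutants against the starved wild type, and all of these comparisons share the 2 wild-type arrays. Those arrays entered the difference by which HOR2 was chosen, so the HOR2 values below are not independent of that choice. Calls over all probes were few as well, at 0.0157% in hat1-del, 0.0157% in hat2-del, 0.329% in hif1-del, 0.0626% in hat1-del+hif1-del, 0.157% in hat2-del+hif1-del and 0.595% in H4K5,12Q. By the unadjusted limma p under 0.05 the members numbered 0, 0, 2, 3, 1 and 5 of 10 in that order, beside 4.13%, 7.33%, 11.1%, 10.8%, 11.3% and 16.8% of all probes. HOR2 is among those counted in hif1-del, hat1-del+hif1-del and H4K5,12Q, so these counts are a description and no test of the set. Among HOR2 values, hif1-del had -1.68 ± 0.46 (95% interval -2.7 to -0.66, adjusted p = 0.217) and H4K5,12Q -1.58 ± 0.46 (95% interval -2.6 to -0.56, adjusted p = 0.14). These intervals do not reach 0, but they rest on the wild-type arrays used in the choice. Neither value passed after adjustment over all probes. The comparison of hif1-del with wt lies within 1 array set, that of H4K5,12Q does not.

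Both of these HOR2 values depended on the samples that estimate the spread. Their p-values below are given as a description, since the wild-type arrays entered the choice of HOR2. When all 36 arrays shared 1 fit, the adjusted p were 0.00816 for HOR2 in hif1-del and 0.00643 in H4K5,12Q, and RHR2 in hif1-del (-1.19 ± 0.41) went from 0.331 to 0.0328. The BY4742 arrays added to that fit vary less for these genes, with pooled SDs within strains of 0.13 for HOR2 and 0.07 for RHR2, against 0.52 and 0.54 among starved strains. In the other starved mutants HOR2 stood at -0.25 in hat1-del, -0.82 in hat2-del, -1.06 in hat1-del+hif1-del and -0.89 in hat2-del+hif1-del, each ± 0.46. All 6 values moved with the wild-type array used. Without array b these 4 became 0.36, -0.21, -0.45 and -0.27, and hif1-del and H4K5,12Q -1.07 and -0.96 (adjusted p = 0.999 and 0.603). Without array a the 4 became -0.87, -1.44, -1.68 and -1.5, and hif1-del and H4K5,12Q -2.3 and -2.19 (adjusted p = 0.121 and 0.129).

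RHR2 followed a similar course. Its starved strain means ran from -1.63 in wt to -2.83 in hif1-del and -2.63 in H4K5,12R, with 16 arrays from -2.89 to -0.91 and a pooled SD within strains of 0.54, larger than for 99% of probes. The 2 hif1-del arrays lay close together, at -2.76 and -2.89, only in some normalizations. They were at -2.05 and -3.93 with print-tip loess and at -1.93 and -3.56 with the authors' ratios. Over the 16 starved arrays the log2 ratios of the 2 phosphatase genes had a Pearson r of 0.77, given as a description since arrays of a strain share their source and the paralogs may share signal. They were not locked together: in starved cells RHR2 was under every growing array while HOR2 was not.

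The remaining members were steadier than HOR2 and RHR2 among starved strains. Even so, with the reported normalization the pooled SD within strains was larger than for 95.7% of probes for GPD1 and 90.6% for STL1. STL1 ran from 2.05 to 3.55 (median 2.68) on the 16 starved arrays, GUT1 from 2.23 to 3.12 (2.66), GUT2 from 2.62 to 3.47 (3.04) and GCY1 from 2.31 to 2.97 (2.63). For GCY1 the 8 strain means spanned only 2.52 to 2.7, less than the pooled SD of 0.22 between arrays of a strain. DAK1 ran from -0.36 to 0.2, GPD2 from -1.3 to -0.79 and GPD1 from 0.19 to 1.53.

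Growing cells of the 2 strains with a tagged H3 held more RNA of all 5 genes of glycerol uptake and breakdown than the growing untagged strain, most firmly of DAK1 and GUT2. In the H3-HA strain 6 of 10 members were called higher and 0 lower, against 25.3% and 19.3% of all probes. In the H3-T7 strain 7 were called higher and 0 lower, against 22.7% and 15.4%. Both comparisons share the 2 untagged arrays, and with median centring the share of higher among called probes moved from 56.7% to 46.9% for H3-HA and from 59.5% to 46.4% for H3-T7.

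DAK1 changed most evenly. Its log2 ratios were 0.31 and 0.08 in the untagged strain, 0.82 and 0.88 in the H3-HA strain and 0.78 and 0.78 in the H3-T7 strain, with no overlap. The differences were 0.65 ± 0.06 (1.57-fold, adjusted p = 7.63e-06) and 0.58 ± 0.06 (1.5-fold, adjusted p = 2.58e-05). GUT2 gave 0.45 and 0.37 in the untagged strain, 0.95 and 1.22 with H3-HA and 1.2 and 1.03 with H3-T7. It was higher by 0.67 ± 0.09 (adjusted p = 7.22e-05) and 0.7 ± 0.09 (adjusted p = 7.53e-05). The calls of DAK1 and GUT2 held in both strains under all 11 alternatives tried for each.

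GCY1 had 0.28 and 0.22 in the untagged strain, 0.73 and 1.43 with H3-HA and 0.93 and 0.7 with H3-T7. The tagged arrays were all higher, by 0.83 ± 0.16 (adjusted p = 0.00172) and 0.56 ± 0.16 (adjusted p = 0.0182), and the 2 arrays of H3-HA lay 0.7 apart. The GCY1 call with H3-T7 was lost without array b of the untagged strain (0.41, adjusted p = 0.211) or array a of H3-T7 (0.29, adjusted p = 0.298). STL1 stood at -0.12 and 0.05, at 0.21 and 0.4 and at 0.21 and 0.41 in the same order, a difference of 0.34 ± 0.03 in each (adjusted p = 3.55e-06 and 5.35e-06). GUT1 was at 0.1 and -0.03 in the untagged strain, 0.39 and 0.39 with H3-HA and 0.24 and 0.15 with H3-T7, which gave 0.36 ± 0.04 (adjusted p = 5.52e-05) and 0.16 ± 0.04 (adjusted p = 0.0122). The GUT1 call with H3-T7 was lost under 5 of 11 alternatives, among them without array b of the untagged strain (0.12, adjusted p = 0.168) and without array a of H3-T7 (0.15, adjusted p = 0.1). With all 36 arrays in 1 fit the STL1 and GUT1 calls were lost in both strains, at adjusted p of 0.236 and 0.266 for STL1 and 0.11 and 0.527 for GUT1 with H3-HA and H3-T7. These are changes of 1.12- to 1.78-fold, small beside those in starved cells.

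Among the genes of synthesis GPD1 was called in both tagged strains, at 0.47 ± 0.15 (adjusted p = 0.0262) and 0.61 ± 0.15 (adjusted p = 0.00882). Its untagged arrays were 0.4 and -0.39 and its tagged ones 0.55 and 0.39 with H3-HA and 0.86 and 0.36 with H3-T7, so the groups overlapped. Without array b of the untagged strain the GPD1 calls were lost (0.24, adjusted p = 0.392, and 0.38, adjusted p = 0.176). HOR2 was called with H3-T7 (0.36 ± 0.09, adjusted p = 0.00862) and not with H3-HA (0.12 ± 0.09, adjusted p = 0.323), and with median centring the first of these was 0.08 (adjusted p = 0.551). The direct difference between the tagged strains, a comparison added after the values were seen, was -0.25 ± 0.09 for HOR2 with H3-HA minus H3-T7 (adjusted p = 0.171). In that comparison GUT1 was the 1 member called (0.19 ± 0.04, adjusted p = 0.0322), against 3.29% of probes. RHR2, GPD2 and HOG1 were not called in either strain, with values of -0.16 and -0.19, -0.14 and -0.16, and 0.18 and -0.01.

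Without array b of the untagged strain 5 members remained called with H3-HA and 3 with H3-T7, and without array a of the H3-T7 strain 4 remained. The starvation markers moved with the tagged strains as well: 6 of 7 were higher with H3-HA and 5 of 7 with H3-T7, led by the heat shock gene HSP26 at 2.32 ± 0.26 and 2.06 ± 0.26, while 3 and 2 of 8 growth markers were lower and 0 and 1 were higher. Their part in the values of the members was not tested.

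**Figure D4:**
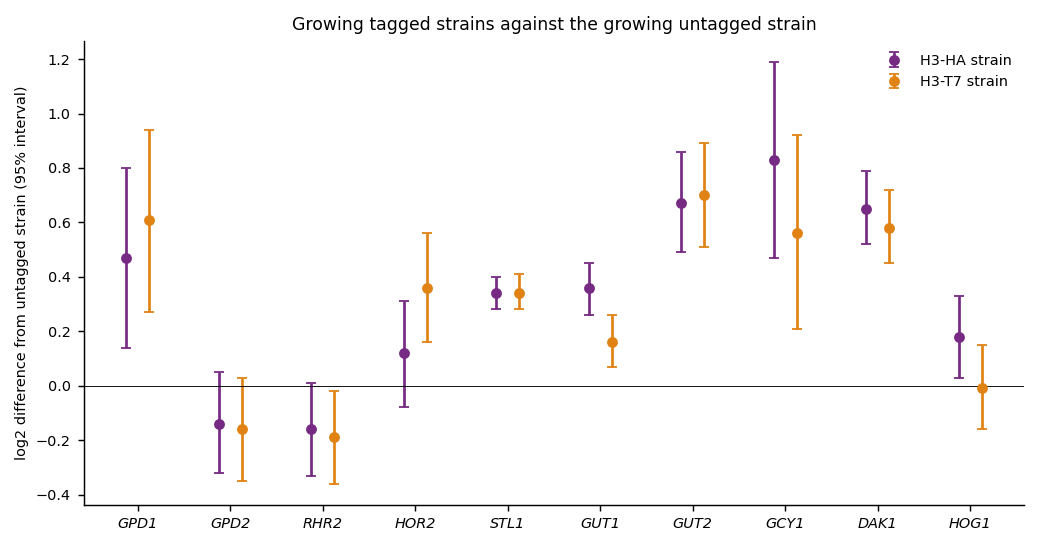
Log2 difference from the growing untagged RITE strain (vertical axis) for each member (horizontal axis) in the H3-HA strain (purple) and the H3-T7 strain (orange); bars are 95% intervals from limma. The 5 genes of uptake and breakdown and GPD1 lie above 0 in both strains, from 0.16 to 0.83, while GPD2 and RHR2 lie at -0.14 to -0.19.

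The growing BY4742 strains all carry a NuB4 deletion and have no wild type of their own beside the reference. Their 14 arrays lay between -0.61 and 0.29 for every member. GPD2 was below the reference on all 14 (-0.61 to -0.31), as were RHR2 (-0.29 to -0.09) and HOR2 (-0.38 to -0.04), and the strain means of STL1 spanned -0.07 to -0.02. Deletions were compared on matched backgrounds, each over 3 pairs of strains. With HAT1 deleted, GPD2 was the 1 member called, at 0.12 ± 0.03 (adjusted p = 0.0494), against 4.7% of probes. Its 6 arrays with HAT1 deleted, at -0.56, -0.4, -0.35, -0.33, -0.34 and -0.31 (hat1-del+hat2-del, hat1-del+hif1-del and the triple deletion, arrays a and b), overlapped the matched arrays at -0.61, -0.57, -0.36, -0.47, -0.53 and -0.45 (hat2-del, hif1-del and hat2-del+hif1-del). The call was lost under 15 of 19 alternatives. GCY1 stood at -0.17 ± 0.05 (adjusted p = 0.0595).

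For HAT2 no member was called (0.0157% of probes), with 0 at an unadjusted p under 0.05 beside 4.6% of all probes. For HIF1 none was called (0.329% of probes), with 2 of 10 at an unadjusted p under 0.05 beside 15.2% of all probes: GPD2 (0.14 ± 0.03, adjusted p = 0.0759) and GUT2 (0.09 ± 0.03, adjusted p = 0.229). HOR2 in growing cells was at -0.11, 0.01 and 0.05 for HAT1, HAT2 and HIF1, each ± 0.05. The difference between growing and starved cells in the effect of HIF1 deletion was tested directly on the hat1-del and hat2-del backgrounds. No member was called (0.0157% of probes) and 1, HOG1, had an unadjusted p under 0.05 (0.25 ± 0.08, adjusted p = 0.542), beside 7.65% of all probes. For HOR2 this difference was 0.47 ± 0.36 (95% interval -0.3 to 1.24). Its starved side sets double deletions against single ones, which lie in different array sets.

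The other genes of the pathway, 78 measured genes in 7 lists, give the surroundings of these members. In the starved wild type 49 (62.8%) were higher and 17 (21.8%) lower than in the growing RITE strains, beside 40% and 38.2% of all probes. Of 23 genes of HOG pathway signalling 9 (39.1%) were higher and 8 (34.8%) lower, with a median of 0.11, which is near the share among all probes and no result about the pathway. RCK2, a kinase that HOG1 activates, was at 0.87 ± 0.09 and PTP3, a phosphatase that acts on HOG1, at 0.75 ± 0.06. The phosphatase gene PTC2 (-1.57 ± 0.1), the sensor gene SHO1 (-0.99 ± 0.08) and the phosphorelay gene YPD1 (-0.97 ± 0.1) were lower. The 6 transcription factor genes split, 3 higher and 2 lower, with MSN4 at 0.89 ± 0.1 and MSN2 at -0.47 ± 0.08, which encode related stress factors.

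Osmotic stress targets were mostly high in starved cells, with 20 of 23 (87%) higher and 2 (8.7%) lower, beside 40% and 38.2% of all probes. Their median was 1.86, beside 0.01 over all probes. The lists were chosen with earlier results of these data known, so these shares are a description. Whether they reflect osmotic stress or starvation at large was not tested. SIP18 (4.97 ± 0.2, 31.4-fold), GRE1 (4.19 ± 0.25) and NQM1 (3.08 ± 0.17) led, and the thiol peroxidase gene AHP1 (-2.62 ± 0.27) and the cell wall gene CWP1 (-2.14 ± 0.14) were the 2 lower. Of 7 genes of glycerol 3-phosphate acylation and NADH shuttles 6 were higher, led by the mitochondrial NADH dehydrogenase genes NDE2 (3.33 ± 0.12) and NDI1 (1.85 ± 0.13), and the acyltransferase gene SCT1 was lower (-0.67 ± 0.07). Of 6 other glycerol and dihydroxyacetone genes 4 were higher and 0 lower, among them YIG1 (2.31 ± 0.11), whose product binds the glycerol phosphatase. Of 5 channel and transport genes 3 were higher and 0 lower, RGC1, a regulator of the glycerol channel, the most (1.49 ± 0.11). Lists of 6 and 5 genes say little beside the 40% of all probes called higher. Regulators split evenly, with 4 higher and 4 lower. CAT8 (3.15 ± 0.2) and ADR1 (1.53 ± 0.12), activators of glucose-repressed genes, and RSF2 (1.19 ± 0.06) were among the higher. OPI1 (-0.9 ± 0.07), MIG1 (-0.65 ± 0.07), the glucose repressor, and SNF1 (-0.64 ± 0.06) were among the lower.

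The growing tagged strains had 36 of these 78 genes (46.2%) higher and 11 (14.1%) lower with H3-HA, beside 25.3% and 19.3% of all probes, and 35 (44.9%) higher and 6 (7.69%) lower with H3-T7, beside 22.7% and 15.4%. Of the osmotic stress targets 22 and 21 of 23 were higher and 0 lower, with medians of 0.95 and 0.87 beside -0.01 and 0 over all probes. RTN2 (1.9 ± 0.23 and 1.98 ± 0.23) and MSC1 (1.41 ± 0.23 and 1.51 ± 0.23) led in both. DAK2, the second dihydroxyacetone kinase, was at 0.51 ± 0.07 with H3-HA and 1.2 ± 0.07 with H3-T7, and the direct difference was -0.69 ± 0.07 (adjusted p = 0.000418). In the starved mutants the only calls on these lists were TPS1 (0.55 ± 0.08, adjusted p = 0.0202), which makes trehalose 6-phosphate, and PGM2 (0.64 ± 0.11, adjusted p = 0.0367), phosphoglucomutase, both higher in H4K5,12Q, whose arrays are of another set than those of wt. For HAT1 deletion in growing cells 3 of 78 (3.85%) were called, YDL124W and TPS2 lower and MIG1 higher, fewer than the 4.7% among all probes.

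**Figure D5:**
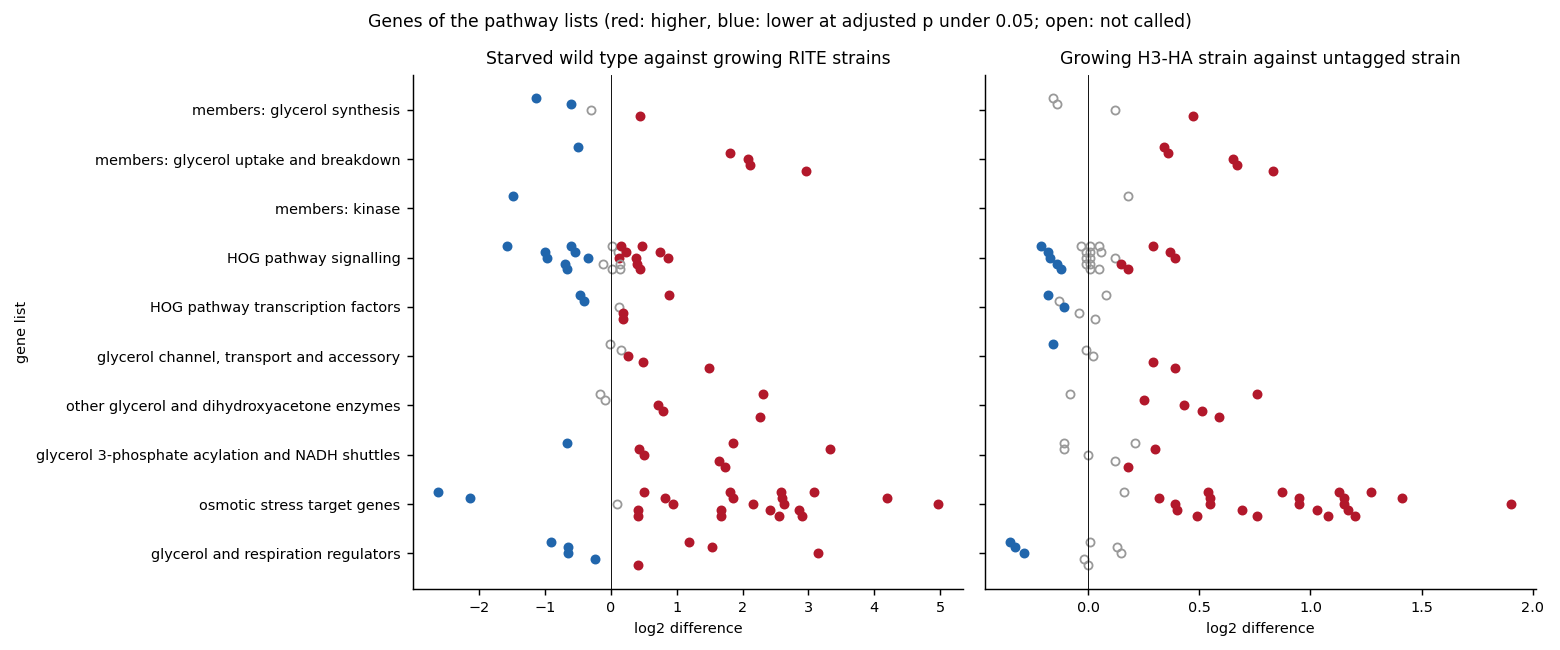
Log2 difference (horizontal axis) of each gene of the pathway lists (vertical axis) in the starved wild type against the growing RITE strains (left) and in the growing H3-HA strain against the untagged strain (right); filled points passed an adjusted p under 0.05. Osmotic stress targets lie mostly to the right in both panels, 20 and 22 of 23 called higher, while HOG pathway signalling genes lie on both sides of 0.

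The probes most like HOR2 over the 18 strain means, by Pearson r among 5316 other named probes, were YGR079W (0.942), BNI4 (0.934), EXG1 (0.926), ERG1 (0.921) and PDE2 (0.914). Over the 8 starved means they were EPS1 (0.981), AIM33 (0.979), NEW1 (0.968), RPS19B (0.963) and LHP1 (0.963), and no gene was in both groups. For the other members the most alike over 18 strains were HER1 for GPD1 (0.989), YPR063C for GPD2 (0.988), BFR2 for RHR2 (0.991), CWC23 for STL1 (0.996), YPL150W for GUT1 (0.998), YJR096W for GUT2 (0.998), SOD2 for GCY1 (0.998), DAL1 for DAK1 (0.973) and THR1 for HOG1 (0.997). These values describe means that share a reference and mostly contrast starved with growing strains, and the best of 5316 probes is high by construction.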

How the data were processed

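The authors deposited scanner intensity values of each spot and its local background for 36 dual-channel arrays, and a matrix of normalized log2 ratios (strain to reference). The submitters' processing notes list limma 2.12.0. A table of their own comparisons (log2 changes and p-values) was not used, and 0 columns were unmatched. The genome build is not given in the sources used here. Background was removed with normexp (offset 50) and each array was fitted by loess in R 4.3.3 with limma 3.58.1, and the 2 spots of a probe were averaged. Deposited and unnormalized scanner ratios correlated at 0.853 to 0.964. Above background means exceeding the local background by more than 2 SDs. The number of arrays limits precision.

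Moderated linear models had strain means and a dye effect for each experiment: starved arrays for the starved mutants, these with growing RITE arrays for starvation, BY4742 arrays for the deletions, RITE and BY4742 growing arrays for the tags, starved and BY4742 arrays for the HIF1 interaction. Adjustment of p-values (Benjamini-Hochberg) ran over all 6388 probes, and called means an adjusted p under 0.05. The fits were tested on simulated data. Members and lists were chosen with earlier results of these data known. All members were named, with up to 3 called genes per list and direction, and the most alike probes. ENA1 and SPG1 were not named on the array. Alternatives were print-tip loess, median centring, uncorrected background, a filter at the 25th percentile of intensity, the authors' ratios, 1 fit of all arrays, no replicate block, each array left out, and other starved or growing arms.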

Additional observations from a re-analysis of the deposited data

How the results depend on the processing

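Each strain had 2 arrays. In the reported fit the bright probes of HOR2, RHR2 and GPD1, far above background, varied most among the members between starved arrays of a strain. Their median gaps between arrays a and b were 0.495, 0.61 and 0.47. With print-tip loess these gaps were 0.33, 0.445 and 0.095, and with the authors' ratios 0.36, 0.835 and 0.115. STL1, GUT1, GUT2, GCY1, DAK1 and HOG1 kept direction and call between starved and growing cells under all alternatives. For DAK1 these did not include the untagged strain alone as the growing arm. Its arrays there (0.31 and 0.08) lay beside those of the starved wild type (0.13 and 0.08). In the starved comparison with growing RITE strains, 6 to 10 members were called across alternatives (9 in the reported fit). GPD1 turned to -0.24 with print-tip loess, -0.04 with median centring and -0.15 with the authors' ratios, and with the arm of 5 mutants to -0.21 and -0.08 with print-tip loess and the authors' ratios. The other normalizations of that arm and the arm of 3 single deletions were chosen after seeing the data. HOR2 turned to 0.2 with print-tip loess and ranged from -0.92 to 0.31 with an array left out, the latter without array a of wt. With median centring HOR2 moved the other way, to a starved wild-type mean of -1.3 beside -0.33 to -0.1 in the growing RITE strains. Against starved wt, leaving out an array moved HOR2 in hat1-del between -0.91 and 0.4 and RHR2 between -1.02 and 0.47 in hat1-del, -1.17 and 0.02 in hat1-del+hif1-del and -0.91 and 0.28 in hat2-del+hif1-del. The causes were not tested.

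Calls among the starved NuB4 mutants numbered 0 as reported, 3 with all 36 arrays in 1 fit and 0 to 1 with an array left out (1 without array a of hif1-del), and in H4K5,12Q 0, 2 with 1 fit and 1 with median centring. With H3-T7 7 members became 4 in 1 fit of all arrays, and 3 to 9 with an array left out (3 without array b of wt-rite). The deletions in growing cells gave 1 call as reported, 2 with the filter, 2 with median centring, 0 with print-tip loess, 0 with 1 fit and 0 to 3 with an array left out. HOR2 in H4K5,12R moved from -2.05 to -1.37 with median centring and between -2.66 and -1.43 with an array left out, and to -0.87 within its array set and to -0.99, -1.16, -1.23, -0.47 and -0.37 against hat1-del+hif1-del, hat2-del+hif1-del, hat2-del, H4K5,12Q and hif1-del. Over all probes, median centring changed the calls for HIF1 deletion from 21 to 953 and for HAT1 deletion from 300 to 68, the authors' ratios gave 155 for HAT1, and print-tip loess moved H4K5,12Q from 38 to 146 and hat1-del+hif1-del from 4 to 30.

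The replicate block was the array letter, and a and b differ in dye orientation throughout. Deviations of same-letter arrays from strain means correlated at 0.36 to 0.77 in BY4742 strains, 0.15 to 0.53 in growing RITE strains and -0.22 to 0.76 in starved strains. With no replicate block 8 members were called for starvation, 4 with H3-HA, 3 with H3-T7 and 0 for the growing deletions, and the starved mutants stayed at 0.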
